A study of Mus musculus with 10 samples.

Results

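Lipocalin-2, the product of Lcn2, is a secreted protein that binds bacterial iron carriers and is made during the acute-phase response. In RNA sequencing of mouse heart, the 10 libraries were divided into a low set and a high set, chosen by their measured Lcn2 level. A library belonged to the low set when Lcn2 was under 20 CPM, where CPM is the gene's read count divided by the column total and multiplied by 1000000. This rule put 3 of the 10 libraries in the low set, LPS libraries 1, 2 and 3. The other 7 formed the high set, namely LPS libraries 4 and 5 and all 5 libraries of the baicalin plus LPS group, numbered 1, 2, 3, 5 and 7.

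All 10 libraries came from hearts of mice that had received a single 10 mg/kg dose of lipopolysaccharide (LPS), the endotoxin of the Gram-negative outer membrane, injected into the peritoneum. The LPS group had been gavaged with distilled water for 14 days before the injection, and the baicalin plus LPS group with 100 mg/kg of baicalin, a flavone glucuronide of Scutellaria root. Hearts were collected 72 hours after LPS. The sources used here give neither strain nor sex nor age, and the labels do not say which mouse gave which library. The saline group that the design names was not analysed here, so no value shows the level of a gene without LPS.

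Lcn2 was 5.895, 5.004 and 4.603 CPM in LPS libraries 1 to 3, 1127 and 429 CPM in LPS libraries 4 and 5, and 332, 154, 213, 703 and 317 CPM with baicalin, where baicalin libraries are always given in the order 1, 2, 3, 5 and 7. The library nearest to the threshold from below was LPS library 1 at 5.895 CPM, and the nearest from above was baicalin plus LPS library 2 at 154 CPM. These values made the sets and are not a result. Because the sets were made from a readout, genes that vary with Lcn2 had to separate them, and every comparison of the sets here is a description without a test. The low set also holds LPS libraries alone, so between the sets the treatment and the Lcn2 level cannot be fully told apart. The comparison of LPS libraries 1 to 3 with LPS libraries 4 and 5, which carry the same treatment label, is given beside it. No library without LPS was analysed and the mouse behind each library is unknown here. It therefore cannot be told from these files whether LPS libraries 1 to 3 are rightly labelled or whether those hearts responded to LPS. Every value of the LPS group is subject to that limit.

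The acute-phase response is the body's rapid change in plasma protein synthesis during infection or injury. LPS is carried by LBP and CD14 to the TLR4 and MD-2 receptor, which signals through MyD88 and TRIF to NF-kB and to interferon regulatory factors. Cytokines released downstream, among them IL-6, IL-1 and TNF, act through STAT3, NF-kB and C/EBP factors on genes such as those of serum amyloid A, haptoglobin and lipocalin-2. The liver is the main source of acute-phase proteins, and heart muscle, endothelium and infiltrating leukocytes can also make several of them. In septic cardiomyopathy, contraction is depressed while inflammatory genes are induced.

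Sequence upstream of the transcription start is shown for Lcn2 and for 3 of the genes that separated the sets most, Saa3, Serpina3n and Cxcl13. They were chosen with their values known. Inside the high set these genes did not keep the same order of libraries. LPS library 4 was highest for Lcn2, Saa3 and Serpina3n, and baicalin plus LPS library 1 for Cxcl13. Baicalin plus LPS library 5 was lowest for Cxcl13, with 703 CPM of Lcn2. Each line holds the 250 bases before the start, 5′ to 3′ on the strand of the gene, from RefSeq on GRCm38.p6. Capitals mark matches to the C/EBP motif TTNNGNAA on either strand.
Lcn2, chr2:32387740-32387989, minus strand: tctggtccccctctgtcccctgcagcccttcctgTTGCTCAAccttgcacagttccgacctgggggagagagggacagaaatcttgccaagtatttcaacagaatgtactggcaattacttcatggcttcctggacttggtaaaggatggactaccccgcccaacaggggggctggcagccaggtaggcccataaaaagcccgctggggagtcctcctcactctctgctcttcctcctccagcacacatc
Saa3, chr7:46715677-46715926, minus strand: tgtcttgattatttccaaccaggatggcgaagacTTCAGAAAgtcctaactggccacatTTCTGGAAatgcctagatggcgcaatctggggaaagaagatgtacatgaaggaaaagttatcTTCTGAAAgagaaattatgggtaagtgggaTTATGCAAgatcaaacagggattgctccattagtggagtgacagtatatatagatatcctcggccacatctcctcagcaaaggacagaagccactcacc
Serpina3n, chr12:104406458-104406707, plus strand: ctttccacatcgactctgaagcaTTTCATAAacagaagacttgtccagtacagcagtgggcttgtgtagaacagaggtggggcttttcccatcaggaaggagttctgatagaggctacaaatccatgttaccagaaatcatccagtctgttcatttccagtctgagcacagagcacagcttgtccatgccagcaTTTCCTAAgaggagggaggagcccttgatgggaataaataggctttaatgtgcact
Cxcl13, chr5:95956689-95956938, plus strand: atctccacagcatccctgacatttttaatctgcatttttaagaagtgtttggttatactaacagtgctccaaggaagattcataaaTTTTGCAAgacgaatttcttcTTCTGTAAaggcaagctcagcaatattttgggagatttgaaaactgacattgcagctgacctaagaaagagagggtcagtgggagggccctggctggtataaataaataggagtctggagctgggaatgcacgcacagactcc
The motif was matched 1 time upstream of Lcn2, 4 times upstream of Saa3 and 2 times each upstream of Serpina3n and Cxcl13. It is a loose motif, present in 36.8% of all 32851 upstream stretches of the same length. The STAT motif TTCNNNGAA, present in 7.02% of them, and the NF-kB consensus, present in 3.9%, were not found in these 4 windows on either strand. A match is a description of letters, not a shown binding site. The windows also depend on the start chosen. In the GENCODE M21 annotation Lcn2 starts farther upstream, at 32388252, so its window here lies inside that gene. Saa3 starts there at 46715700, so its window overlaps that gene in part.

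Library totals ran from 39.4 to 75.7 M counts, with the low set between 60.0 and 75.7 M. Mitochondrially encoded transcripts took 42.1% to 43.3% of the counts in the low set and 30.2% to 44.1% in the high set. The 10 most abundant nuclear genes took 8.22% to 8.63% of the counts in the low set and 6.25% to 7.57% in the high set, without overlap. The 10 cardiomyocyte markers summed to 62519.7 to 66165 CPM in the low set and 41628 to 59197 CPM in the high set. Some libraries stood apart inside the high set. LPS library 4 had the lowest mitochondrial share. Baicalin plus LPS libraries 2 and 3 held markers of atrial muscle, with Myl7, the atrial myosin light chain, at 150.3 and 30.2 CPM against at most 2.48 CPM in the other 8 libraries.

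Across 13234 genes with a mean of at least 1 CPM, Lcn2 left out, 2686 genes (20.3%) lay lower in all 3 low libraries than in all 7 high libraries. Another 439 genes (3.32%) lay higher in all 3. A gap of at least 2-fold between the nearest libraries of the 2 sets held for 101 of the lower genes (0.763%) and 5 of the higher genes (0.0378%). Of the 2686 lower genes, 241 had a mean under 1 CPM in the low set and so entered the description through the high set alone, and this was true of 45 of the 101. The balance of directions depended on the scaling. With library sizes scaled by edgeR's TMM factors, which set the bulk of genes equal, 1420 genes (10.7%) were lower and 1419 (10.7%) higher. The median log2 difference over all genes, low minus high, was -0.18 by column totals, -0.10 by the total without mitochondrial genes and near 0 after TMM. Differences of single genes below are by column totals, and a value near -0.18 is that of the typical gene. In bulk tissue, fewer cells of a type and less RNA per cell cannot be told apart.

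Inside the LPS group alone, 6788 genes (51.3%) lay lower in LPS libraries 1 to 3 than in LPS libraries 4 and 5, and 1726 (13%) lay higher. After TMM scaling these counts were 4047 (30.6%) and 3798 (28.7%). Leaving out a library can only keep or raise counts of genes without overlap. Without LPS library 5, 8030 genes were lower and 3573 higher inside the LPS group, and without LPS library 4 8414 and 2287. Across the sets, leaving out baicalin plus LPS library 5 gave 3916 lower and 450 higher genes. Leaving out LPS library 4 changed the counts across the sets to 2934 lower and 527 higher, and leaving out baicalin plus LPS library 2 changed them to 2745 and 599. Without baicalin plus LPS library 3 they were 2977 and 472.

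Counts of list members below are to be read against the shares of all genes, which were 20.3% lower and 3.32% higher across the sets, 10.7% in each direction after TMM scaling, and 51.3% lower and 13% higher inside the LPS group. Of the 138 genes named, 73 were lower across the sets, and 6 of these overlapped after TMM scaling, namely Cpt1a, Rcan1, Des, Rfx5, Clock and Fth1. H2-Ab1, Mhrt and Adgrf5 overlapped by column totals and lay higher in the low set after TMM scaling.

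Among the 25 pathway lists, that of acute-phase proteins had the most negative median difference between the sets. Of 30 genes in the list of acute-phase proteins, 18 had a mean of at least 1 CPM, and 14 of these lay lower in the low set without overlap and 0 higher, against 20.3% and 3.32% of all genes. The median log2 difference of the 18 was -1.64, beside -0.18 for all genes. For 7 of the 18 the mean in the low set was under 1 CPM, and of the 29 members with any count 15 lay lower. Saa3, an extrahepatic serum amyloid A, was 2.05, 1.21 and 2.07 CPM in LPS libraries 1 to 3, 407 and 245 CPM in LPS libraries 4 and 5, and 187, 82.8, 107, 111 and 139 CPM with baicalin. The lowest high library held 40-fold more Saa3 than the highest low library, and the medians of the sets differed 67.6-fold. Serpina3n, a serine protease inhibitor, was 13.6, 12.95 and 9.92 CPM in LPS libraries 1 to 3, 1041 and 629.7 CPM in LPS libraries 4 and 5, and 439, 267, 527, 568 and 287 CPM with baicalin. Within the high set, LPS library 4 was the highest and baicalin plus LPS library 2 the lowest for Serpina3n.

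Haptoglobin, the hemoglobin scavenger encoded by Hp, was 0.323, 0.317 and 0.3002 CPM in LPS libraries 1 to 3, 79.05 and 19.7 CPM in LPS libraries 4 and 5, and 7.44, 10.3, 17.6, 5.82 and 5.61 CPM with baicalin. Its values in the low set were near 0.3 CPM, so its 32.6-fold difference between the medians rests on few reads there. Timp1, an inhibitor of matrix metalloproteinases, was 1.95, 1.91 and 1.83 CPM in LPS libraries 1 to 3, 72.8 and 20.8 CPM in LPS libraries 4 and 5, and 20.4, 18.4, 15.2, 14.7 and 18.97 CPM with baicalin. The 5 baicalin libraries and LPS library 5 lay within a narrow band for Timp1, and LPS library 4 stood above them. C3, the central complement component, was 139, 144 and 114 CPM in LPS libraries 1 to 3, 1308 and 1038 CPM in LPS libraries 4 and 5, and 699, 1371, 1622, 456 and 554 CPM with baicalin, with the highest values in baicalin plus LPS library 3. Lrg1, a leucine-rich glycoprotein of inflamed endothelium, had 23.2 to 28.6 CPM in the low set and 65.7 to 477 CPM in the high set.

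Ceruloplasmin, the copper ferroxidase encoded by Cp, had 104 to 118 CPM in the low set and 188 to 388 CPM in the high set. LPS-binding protein, encoded by Lbp, had 4.35 to 5.298 CPM in the low set and 9.05 to 26.2 CPM in the high set. Members of the Serpina3 cluster share sequence, so counts may be divided among them. Serpina3f, one of these members, had 0.1001 to 0.129 CPM in the low set and 1.61 to 22.5 CPM in the high set. Serpina3m had no read in the low libraries and 0.352 to 10.5 CPM in the high set. Ptx3, Steap4 and Il1rn were among the members that overlapped between the sets.

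**Figure D1:**
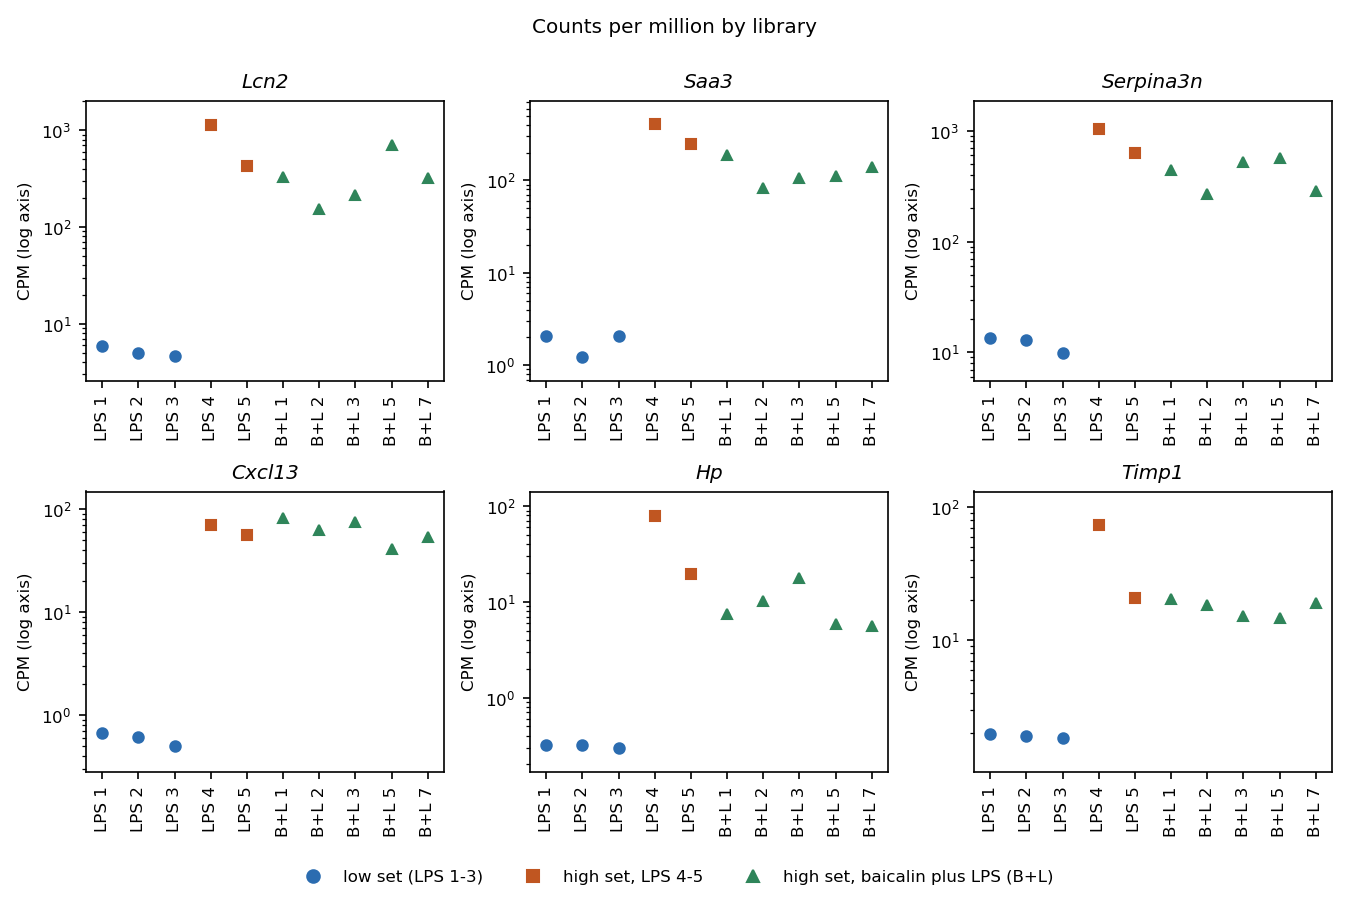
CPM of Lcn2, which made the sets, and of Saa3, Serpina3n, Cxcl13, Hp and Timp1 in each of the 10 libraries on log axes, 1 point per library, with circles for the low set, squares for LPS libraries 4 and 5 and triangles for baicalin plus LPS (B+L). In every panel the 3 circles lie below the 7 other points, for Saa3 at 1.21 to 2.07 CPM against 82.8 to 407 CPM.

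The LPS receptor itself did not separate the sets, and several of its partners did. Tlr4 had 16.3 to 19.1 CPM in the low set and 12.3 to 23.6 CPM in the high set, and Ly96, which encodes MD-2, had 1.78 to 1.93 CPM in the low set and 0.998 to 2.94 CPM in the high set. Inside the LPS group both were without overlap. LPS libraries 4 and 5 had more Tlr4, 20.4 and 20.1 CPM, and less Ly96, 0.998 and 1.58 CPM, than LPS libraries 1 to 3. Of the 22 genes for sensing LPS and bacteria, 14 lay lower in the low set and 0 higher, with a median log2 difference of -0.74. The means of 7 of the 22 were under 1 CPM in the low set. Cd14, the LPS co-receptor, was 4.59, 5.76 and 4.102 CPM in LPS libraries 1 to 3, 26.2 and 17.8 CPM in LPS libraries 4 and 5, and 28.1, 20.3, 23.2, 9.07 and 14.8 CPM with baicalin. Tlr2, the receptor for bacterial lipopeptides, was 2.197, 2.68 and 1.98 CPM in LPS libraries 1 to 3, 7.08 and 7.42 CPM in LPS libraries 4 and 5, and 12.1, 17.7, 21.6, 3.99 and 7.95 CPM with baicalin, with its highest values in baicalin plus LPS libraries 1 to 3. The adaptor Myd88 had 5.94 to 6.86 CPM in the low set and 10.9 to 52.4 CPM in the high set, and LPS library 4 was the highest by far. Tlr13, a mouse receptor for bacterial ribosomal RNA, had 1.55 to 1.76 CPM in the low set and 4.34 to 18.4 CPM in the high set. The formyl peptide receptor gene Fpr1, a receptor of neutrophils and monocytes, had 0.0528 to 0.258 CPM in the low set and 4.48 to 19.7 CPM in the high set.

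Among 17 NF-kB subunits and feedback genes, 11 were lower and 0 higher, with a median log2 difference of -0.84. Nfkbiz, which encodes the atypical inhibitor IκBζ needed for Lcn2 induction in macrophages, was 4.85, 4.82 and 4.19 CPM in LPS libraries 1 to 3, 37.4 and 24.4 CPM in LPS libraries 4 and 5, and 16.9, 15.3, 17.9, 11.5 and 12.6 CPM with baicalin. The ubiquitin-editing enzyme gene Tnfaip3 had 3.39 to 3.64 CPM in the low set and 7.77 to 24.2 CPM in the high set. In the IL-6 and STAT3 list, 7 of 18 members were lower, 1 was higher and 10 overlapped. Socs3, the feedback inhibitor of STAT3, was 2.99, 4.45 and 3.14 CPM in LPS libraries 1 to 3, 36.8 and 39.4 CPM in LPS libraries 4 and 5, and 20.4, 12.4, 13.8, 11.1 and 17.2 CPM with baicalin. Stat3 had 107 to 112 CPM in the low set and 184 to 487 CPM in the high set, Il4ra had 11.1 to 12.2 against 21.9 to 130.03 CPM, and Junb had 7.604 to 9.76 against 16.97 to 50.3 CPM. The receptor subunit gene Il6st overlapped between the sets, at 157 to 166 against 153 to 292 CPM, and baicalin plus LPS library 5 lay below the low set.

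Cxcl13, a chemokine that attracts B cells, showed the largest gap of all genes between the sets. Its levels were 0.662, 0.607 and 0.5003 CPM in LPS libraries 1 to 3, 69.9 and 56.5 CPM in LPS libraries 4 and 5, and 82.2, 62.3, 74.8, 40.99 and 53.6 CPM with baicalin, and the lowest high library exceeded the highest low library 61.9-fold. Of 30 cytokines and chemokines that passed the filter, 16 lay lower and 0 higher, with 9 of the 30 under 1 CPM on average in the low set. Ccl2, which recruits monocytes through CCR2, was 1.41, 1.64 and 0.8005 CPM in LPS libraries 1 to 3, 32.2 and 27.04 CPM in LPS libraries 4 and 5, and 14.5, 19.3, 26.1, 7.03 and 23.7 CPM with baicalin. The related Ccl7 had 0.133 to 1.003 CPM in the low set and 4.81 to 29.3 CPM in the high set, and the neutrophil chemokine Cxcl1 had 1.31 to 2.43 against 5.25 to 24.4 CPM. Cxcl9, a chemokine induced by interferon gamma, reached 82.8 CPM in LPS library 4, and the other high libraries lay between 3.36 and 12.2 CPM.

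The cytokines that the field most often measures were at low levels. Tnf was 0.162, 0.264 and 0.0334 CPM in LPS libraries 1 to 3, 3.51 and 1.12 CPM in LPS libraries 4 and 5, and 2.79, 1.34, 3.64, 0.492 and 0.783 CPM with baicalin. Il6 was 0.194, 0.647 and 0.317 CPM in LPS libraries 1 to 3, 2.07 and 0.707 CPM in LPS libraries 4 and 5, and 0.406, 1.33, 0.359, 0.228 and 0.338 CPM with baicalin, so the sets overlapped. Il1b also overlapped, at 0.565 to 2.85 CPM in the low set and 0.966 to 8.64 CPM in the high set.

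Interferon-stimulated genes had the most members lower in the low set of all 25 lists. Of 50 members, 38 lay lower and 0 higher, with a median log2 difference of -0.85. After TMM scaling 34 lay lower and 1 higher. Irf7, the master regulator of type I interferon, was 12.8, 12.5 and 9.72 CPM in LPS libraries 1 to 3, 184 and 84.97 CPM in LPS libraries 4 and 5, and 30.03, 42.6, 32.9, 82.4 and 78.4 CPM with baicalin. Baicalin plus LPS libraries 5 and 7 lay close to LPS library 5 for Irf7, and libraries 1 to 3 lay lower. Ifit1 and Ifit3, antiviral effectors, had 4.47 to 5.096 against 11.3 to 33.5 CPM and 5.75 to 7.27 against 16.4 to 34.99 CPM. Ifitm1, a membrane protein that restricts virus entry, had 2.58 to 3.004 against 10.4 to 38.3 CPM. The myeloid Schlafen gene Slfn4 had 0.217 to 0.355 against 3.04 to 17.9 CPM.

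In the proteasome list 16 of 30 genes lay lower and 0 higher, against 20.3% and 3.32% of all genes. After TMM scaling the count was 4 of 30, or 13.3%, near the 10.7% of all genes. Psmb8, a catalytic subunit of the immunoproteasome, had 2.02 to 2.27 CPM in the low set and 4.15 to 15.5 CPM in the high set, and Psmb10 had 13.02 to 14.6 against 20.4 to 42.7 CPM. Complement showed 10 of 16 genes lower, 0 higher and a median log2 difference of -1.42. C1qb and C1ra, of the initiating C1 complex, had 14.9 to 17.96 against 30.9 to 82.6 CPM and 11.7 to 15.2 against 27.5 to 74.7 CPM, and C4b had 5.39 to 7.72 against 12.5 to 48.9 CPM.

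**Figure D2:**
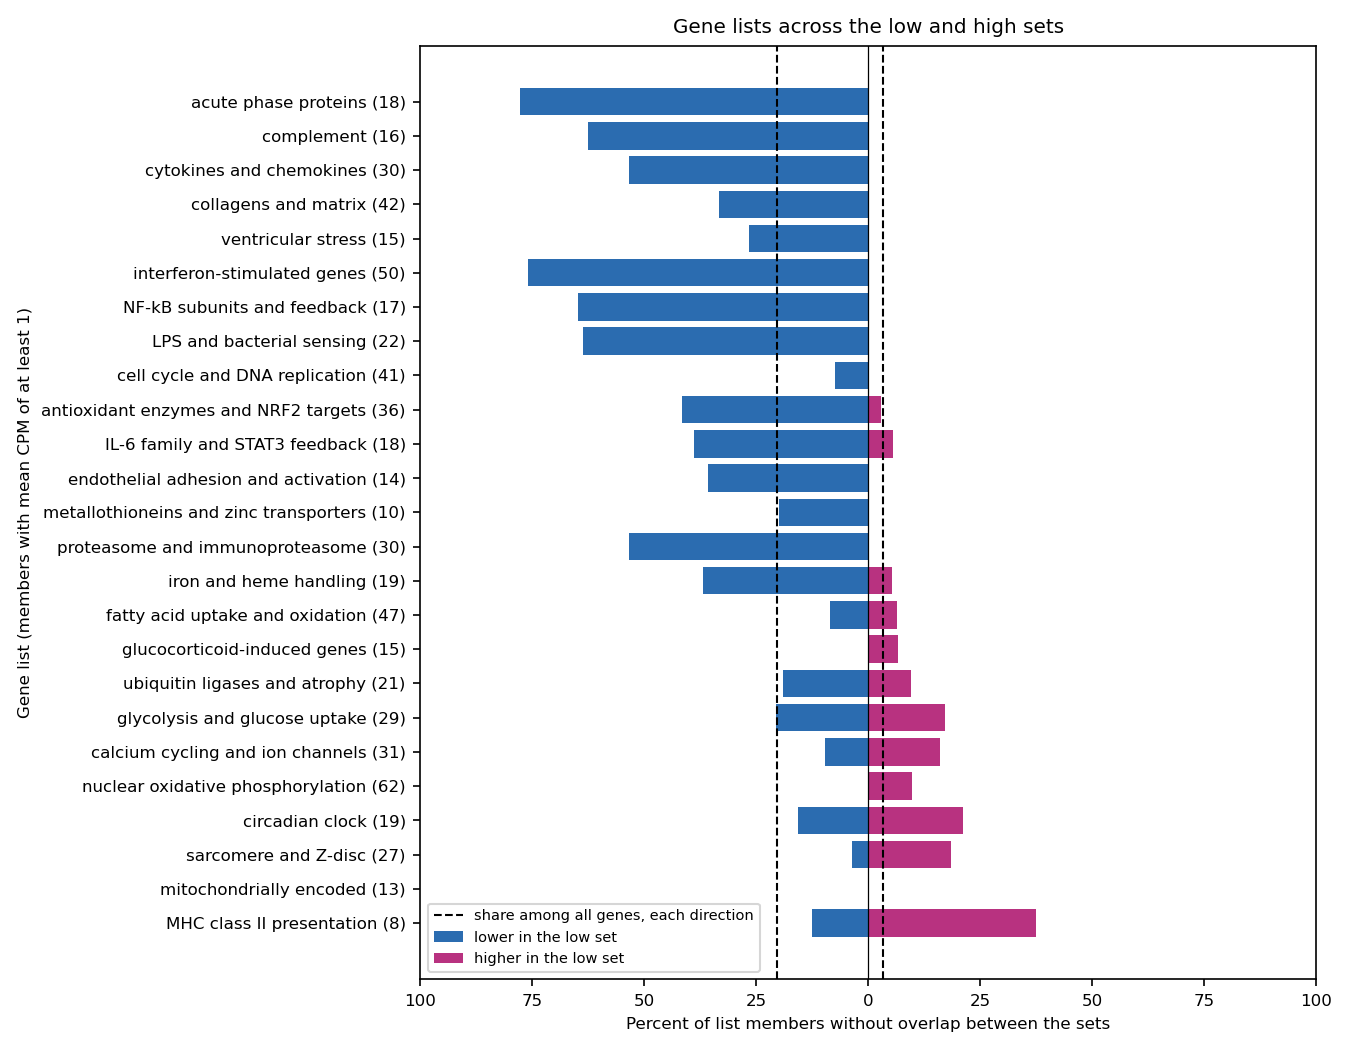
Percent of the members of 25 gene lists that lay lower (left, blue) or higher (right, pink) in the low set than in the high set without overlap, with the number of members of mean CPM of at least 1 in brackets. Dashed lines mark the share among all genes, 20.3% lower and 3.32% higher, and acute-phase proteins, interferon-stimulated genes and NF-kB genes extend farthest to the left.

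Neutrophil markers had the most negative median difference of the marker lists. Of 17 neutrophil markers, 12 had a mean of at least 1 CPM, and 11 of them lay lower in the low set. For 10 of the 12 the mean in the low set was under 1 CPM. The summed level of all 17 was 4.39 to 8.67 CPM in the low set and 47.7 to 313 CPM in the high set. The calprotectin subunit gene S100a9 was 1.08, 0.317 and 0.5003 CPM in LPS libraries 1 to 3, 95.1 and 14.5 CPM in LPS libraries 4 and 5, and 17.997, 16.2, 27.4, 9.61 and 13.8 CPM with baicalin. Csf3r, the G-CSF receptor, had 0.784 to 1.47 against 4.199 to 27.04 CPM, and the granule gene Ngp had 0.2001 to 0.388 against 2.73 to 59.7 CPM. Retnlg and the collagenase gene Mmp8 had 0.132 to 0.226 against 3.95 to 12.4 CPM and 0.0167 to 0.888 against 4.23 to 23.9 CPM. The azurophil granule genes Elane and Mpo stayed under 0.1 CPM in every library. The part of neutrophils in the acute-phase differences was not tested.

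Macrophage and monocyte markers followed with 12 of 20 lower and 0 higher, and for 5 of the 20 the mean in the low set was under 1 CPM, so they passed the filter through the high set. They had summed levels of 244 to 287 CPM against 352 to 1654 CPM. Itgam, the CD11b integrin subunit of myeloid cells, was 2.197, 1.39 and 1.501 CPM in LPS libraries 1 to 3, 36.1 and 32.1 CPM in LPS libraries 4 and 5, and 31.9, 22.6, 31.6, 12.8 and 20.2 CPM with baicalin. Marco, a scavenger receptor of macrophages, was 0.242, 0.3301 and 0.167 CPM in LPS libraries 1 to 3, 28.6 and 16.03 CPM in LPS libraries 4 and 5, and 35.2, 21.3, 40.4, 5.41 and 11.3 CPM with baicalin. Cd68 and Adgre1, the F4/80 antigen, had 6.71 to 8.17 against 16.7 to 72.7 CPM and 3.25 to 4.86 against 5.55 to 67.7 CPM. Lyz2, lysozyme of myeloid cells, was 72.9, 57.8 and 73.3 CPM in LPS libraries 1 to 3, 196 and 224 CPM in LPS libraries 4 and 5, and 432, 746, 891, 129.5 and 219 CPM with baicalin, and the highest values were in baicalin plus LPS libraries 2 and 3. Lyve1 and Timd4, used as markers of resident macrophages, were among the 8 members of the list that overlapped between the sets. They are single members, and a difference between kinds of macrophage was not tested. Lyve1 had 24.1 to 31.2 CPM in the low set and 13.9 to 60.1 CPM in the high set, with its lowest values in baicalin plus LPS libraries 5 and 7. Timd4 had 0.834 to 1.195 CPM in the low set and 0.387 to 3.22 CPM in the high set. Inside the LPS group it lay higher in LPS libraries 1 to 3 than in LPS libraries 4 and 5, at 0.650 and 0.693 CPM.

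The 7 lung and airway markers summed to at most 1.68 CPM in any library. The hepatocyte markers, 13 of 14 of them in the table, summed to 3.67 to 4.36 CPM in the low set and 5.94 to 18.2 CPM in the high set. Most of that sum was Ahsg, fetuin-A of liver, with 2.401 to 2.99 CPM in the low set and 4.82 to 15.4 CPM in the high set, and it was the only one with a mean of at least 1 CPM. Alb, albumin, reached at most 0.836 CPM in any library. The part of liver RNA in the acute-phase differences was not tested. Of 15 endothelial markers, 0 lay lower across the sets and 1 higher. Inside the LPS group 10 of the 15 lay lower and 1 higher, against 51.3% and 13% of all genes. Their median log2 difference there was -0.55, beside -0.23 for all genes. Of 11 fibroblast markers, 1 lay lower across the sets and 0 higher, and inside the LPS group 7 lay lower and 3 higher, against the same shares of all genes.

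Leukocyte adhesion molecules of the endothelium were lower in the low set in 5 of 14 cases (35.7%) and higher in 0, against 20.3% and 3.32% of all genes. For 2 of the 14 the mean in the low set was under 1 CPM. Selp, P-selectin, was 0.178, 0.211 and 0.2001 CPM in LPS libraries 1 to 3, 41.2 and 9.57 CPM in LPS libraries 4 and 5, and 3.27, 4.38, 5.46, 2.07 and 2.54 CPM with baicalin. Sele, E-selectin, had 0.3502 to 0.885 CPM in the low set and 3.303 to 10.5 CPM in the high set. Icam1 was 7.72, 9.85 and 8.12 CPM in LPS libraries 1 to 3, 97.9 and 92.3 CPM in LPS libraries 4 and 5, and 35.3, 31.8, 37.7, 24.1 and 36.99 CPM with baicalin, with LPS libraries 4 and 5 far above the baicalin libraries. Vcam1 had 11.1 to 16.7 CPM in the low set and 20.1 to 73.4 CPM in the high set, and its highest value was in baicalin plus LPS library 3.

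Among collagens and matrix genes, 14 of 42 (33.3%) lay lower and 0 higher. The stromelysin gene Mmp3 was 1.68, 1.99 and 0.917 CPM in LPS libraries 1 to 3, 30.3 and 14.7 CPM in LPS libraries 4 and 5, and 13.1, 10.8, 17.5, 13.1 and 12.7 CPM with baicalin. Lox, which crosslinks collagen, had 2.52 to 2.802 CPM in the low set and 7.81 to 24.5 CPM in the high set. Col1a1 had 17.9 to 19.1 CPM in the low set and 21.4 to 196 CPM in the high set. Col3a1 overlapped, because baicalin plus LPS library 5 had 26.8 CPM, within the 25.6 to 31.9 CPM of the low set, and library 3 had 581 CPM.

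Ventricular stress genes gave 4 of 15 lower (26.7%) and 0 higher, close to the 20.3% of all genes, and 3 lower after TMM scaling. Ankrd1, a stretch-responsive cofactor of the sarcomere, was 579.7, 656 and 516 CPM in LPS libraries 1 to 3, 7494 and 3401 CPM in LPS libraries 4 and 5, and 3553, 1733, 2273, 2514 and 3749 CPM with baicalin. Myh7, the slow myosin heavy chain that is re-expressed in stressed mouse ventricle, was 281, 434 and 273 CPM in LPS libraries 1 to 3, 1828 and 2444 CPM in LPS libraries 4 and 5, and 1368, 1154, 753, 488 and 1739 CPM with baicalin. Xirp1, of the intercalated disc, had 163 to 202 against 267 to 987 CPM, and Rcan1, a calcineurin inhibitor, had 40.1 to 46.7 against 56.3 to 592 CPM. For both of the latter, LPS library 4 alone carried the upper end. The natriuretic peptide genes Nppa and Nppb overlapped, at 76.1 to 104 against 51.7 to 899.9 CPM and 29.6 to 54.9 against 30.1 to 110.3 CPM. The highest Nppa value was in baicalin plus LPS library 2, which also held the most atrial markers.

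Antioxidant genes gave 15 of 36 lower and 1 higher. The exception was Sod2, the mitochondrial superoxide dismutase, with 418 to 447 CPM in the low set and 307 to 396 CPM in the high set. Hmox1, heme oxygenase 1, was 11.7, 13.5 and 11.8 CPM in LPS libraries 1 to 3, 376 and 68.7 CPM in LPS libraries 4 and 5, and 52.4, 41.8, 73.5, 22.8 and 27.2 CPM with baicalin. Mgst1, a microsomal glutathione transferase, had 18.4 to 22.7 CPM in the low set and 38.03 to 166 CPM in the high set. Gpx3, an extracellular glutathione peroxidase, had 165 to 182 CPM in the low set and 367 to 722 CPM in the high set. Of 19 genes of iron and heme handling, 7 lay lower and 1 higher. Fth1, the ferritin heavy chain, had 880.1 to 1138 CPM in the low set and 1222 to 2295 CPM in the high set. The zinc importer gene Slc39a1 had 29.8 to 36.4 CPM in the low set and 61.6 to 124 CPM in the high set. Mt1, a metallothionein, overlapped and was 234, 207 and 177 CPM in LPS libraries 1 to 3, 2096 and 764 CPM in LPS libraries 4 and 5, and 579, 134, 146, 742 and 379 CPM with baicalin.

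Genes for lipid use differed in direction. Plin2, which coats lipid droplets, had 31.2 to 32.5 CPM in the low set and 49.8 to 396 CPM in the high set, and Cpt1a, the liver form of the mitochondrial carnitine acyltransferase, had 43.5 to 47.8 CPM in the low set and 56.2 to 143 CPM in the high set. Oxct1, which starts ketone body oxidation, lay higher in the low set, at 880.1 to 938 CPM in the low set and 389 to 628 CPM in the high set. Ppargc1a, a coactivator of mitochondrial biogenesis, was 218, 285 and 416 CPM in LPS libraries 1 to 3, 51.3 and 123 CPM in LPS libraries 4 and 5, and 174, 128, 123, 116 and 128 CPM with baicalin. In the whole list of fatty acid uptake and oxidation, 4 of 47 genes lay lower and 3 higher, against 20.3% and 3.32% of all genes. Inside the LPS group 33 of the 47 lay lower and 6 higher, against 51.3% and 13% of all genes, with a median log2 difference of -0.52.

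The genes higher in the low set included muscle and metabolic genes. They were fewer than the lower genes by column totals, at 439 against 2686, but not after TMM scaling, at 1419 against 1420. Mylk4, a kinase of the myosin light chain kinase family found in heart, at chr13:32700834-32783954 on GRCm38, was 305, 375 and 345 CPM in LPS libraries 1 to 3, 62.2 and 146 CPM in LPS libraries 4 and 5, and 105, 98.6, 74.5, 102 and 132 CPM with baicalin. Aqp1, the water channel of microvascular endothelium, at chr6:55336432-55348555, was 311, 258 and 265 CPM in LPS libraries 1 to 3, 92.1 and 82.9 CPM in LPS libraries 4 and 5, and 74.3, 130.3, 70.2, 46.5 and 79.4 CPM with baicalin. The medians of the sets differed 3.37-fold and 3.34-fold for these genes. The log2 differences were 1.77 and 1.796 by column totals and 1.98 and 2.005 after TMM scaling.

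Rpl3l, a ribosomal protein specific to heart and skeletal muscle, was 169.9, 157 and 161 CPM in LPS libraries 1 to 3, 90.3 and 87.1 CPM in LPS libraries 4 and 5, and 72.9, 80.4, 64.3, 57.7 and 85.6 CPM with baicalin. Pde7a and Pde4c, phosphodiesterases that degrade cyclic AMP, had 91.9 to 111 against 23.96 to 50.3 CPM and 11.5 to 12.96 against 3.91 to 5.83 CPM. Dct, dopachrome tautomerase, had 7.67 to 10.5 CPM in the low set and 0.766 to 3.63 CPM in the high set. Rasgrp2, an activator of Rap1, had 40.1 to 42.1 CPM in the low set and 10.8 to 21.3 CPM in the high set. The lowly expressed Plscr5 and Fgf6 had 2.32 to 2.91 against 0.232 to 1.04 CPM and 1.97 to 2.297 against 0.139 to 0.939 CPM.

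**Figure D3:**
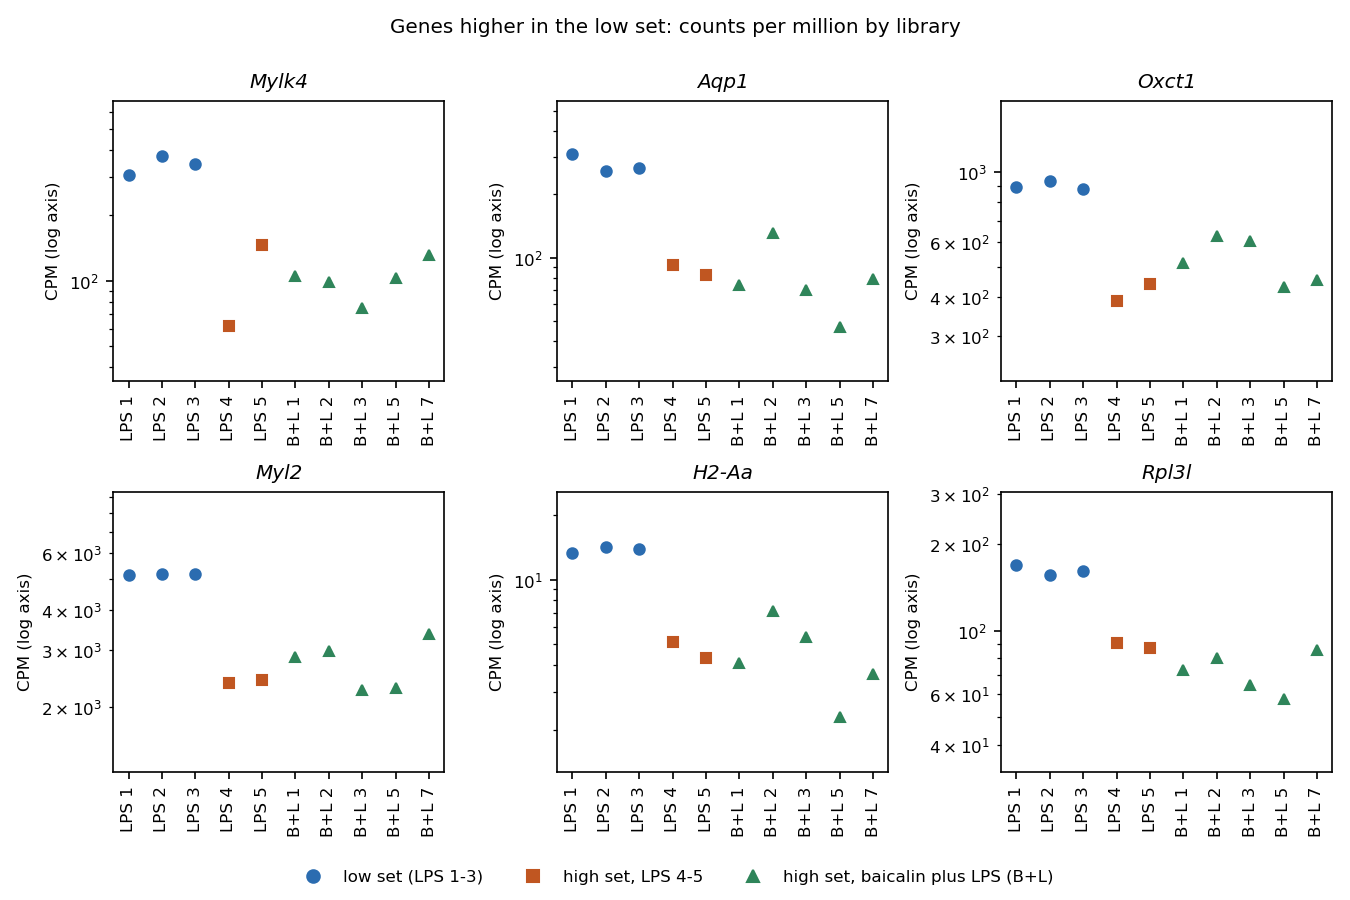
CPM of Mylk4, Aqp1, Oxct1, Myl2, H2-Aa and Rpl3l in each of the 10 libraries on log axes, 1 point per library, with circles for the low set, squares for LPS libraries 4 and 5 and triangles for baicalin plus LPS (B+L). The 3 circles lie above the 7 other points in each panel, for Mylk4 at 305 to 375 against 62.2 to 146 CPM.

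Contractile genes lay higher in the low set for part of the list. Of 27 sarcomere and Z-disc genes, 5 lay higher and 1 lower, against 3.32% and 20.3% of all genes, and after TMM scaling 12 lay higher and 0 lower. Myl2, the ventricular regulatory light chain, was 5124, 5183 and 5173 CPM in LPS libraries 1 to 3, 2380.3 and 2423 CPM in LPS libraries 4 and 5, and 2854, 2978, 2267, 2293 and 3385 CPM with baicalin. Its essential partner Myl3 had 3295 to 3649.9 CPM in the low set and 1847 to 2473 CPM in the high set, and titin, encoded by Ttn, had 6605 to 6779.6 against 3699 to 5468 CPM. Of the 10 cardiomyocyte markers, 4 lay higher, 1 lay lower and 5 overlapped, and after TMM scaling 6 lay higher and 0 lower. Among those higher, Mb, myoglobin, and Tnni3, cardiac troponin I, had 8289 to 9710.3 against 4504 to 6342 CPM and 3024 to 3858 against 1739.9 to 2897 CPM. Des, desmin, was the sarcomere and Z-disc member that lay lower, at 1302 to 1336 CPM in the low set and 1609.9 to 2848 CPM in the high set. After TMM scaling the sets overlapped for Des.

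Calcium cycling and ion channel genes gave 5 of 31 higher and 3 lower. Hrc, a calcium-binding protein of the sarcoplasmic reticulum, had 1111 to 1243 CPM in the low set and 601 to 806 CPM in the high set. The potassium channel genes Kcnip2 and Kcnv2 had 89.5 to 104 against 42.2 to 65.1 CPM and 15.8 to 16.2 against 4.43 to 11.1 CPM. Gja1, connexin 43 of the gap junction, lay lower at 172 to 187 CPM in the low set and 275 to 468 CPM in the high set. Nuclear genes of oxidative phosphorylation gave 6 of 62 higher (9.68%) and 0 lower, against 3.32% and 20.3% of all genes. After TMM scaling 23 lay higher, where the share of all genes also rose to 10.7%. Ndufs1 of complex I and Atp5f1 of the ATP synthase had 421 to 448 against 312 to 402 CPM and 782 to 810.2 against 609 to 769 CPM, and the medians of the sets differed 1.21-fold and 1.25-fold. Of 29 genes of glycolysis and glucose uptake, 6 lay lower (20.7%) and 5 higher (17.2%), against 20.3% and 3.32% of all genes. The share lower was thus that of all genes, and 18 of the 29 overlapped. After TMM scaling 5 lay lower and 10 higher. The muscle enolase gene Eno3 had 543 to 592 CPM in the low set and 145 to 416 CPM in the high set, whereas the hexokinase gene Hk1 had 151 to 170.1 CPM in the low set and 272 to 423 CPM in the high set and the lactate exporter gene Slc16a3 had 1.63 to 1.92 CPM in the low set and 3.67 to 24.8 CPM in the high set.

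Antigen presentation genes of MHC class II were higher in the low set in 3 of 8 cases and lower in 1. H2-Aa was 13.3, 14.2 and 13.8 CPM in LPS libraries 1 to 3, 5.13 and 4.31 CPM in LPS libraries 4 and 5, and 4.11, 7.18, 5.404, 2.302 and 3.66 CPM with baicalin. H2-Eb1 had 10.95 to 11.7 CPM in the low set and 2.81 to 5.99 CPM in the high set, and the invariant chain gene Cd74 had 37.6 to 45.2 CPM in the low set and 12.9 to 31.7 CPM in the high set. H2-Ab1 overlapped by column totals because of LPS library 4, at 14.02 CPM, and lay higher in the low set after TMM scaling. The member that lay lower was Rfx5, a transcription factor of these genes, at 3.13 to 4.45 CPM in the low set and 5.0003 to 8.66 CPM in the high set, and after TMM scaling its sets overlapped. Dendritic cell markers did not separate the sets, with 0 of 4 in either direction. The vascular genes Flt1, a VEGF receptor, and Rgs5, of pericytes, lay higher at 184 to 211 against 83.1 to 127 CPM and 529 to 611 against 156 to 480.3 CPM. Both were single members of their lists. Flt1 was the only 1 of 15 endothelial markers that lay higher, and the other 14 overlapped. Rgs5 was the only 1 of 9 pericyte and smooth muscle markers that lay higher, and the other 8 overlapped.

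Baicalin libraries were then placed on the contrast inside the LPS group. With a gap of at least 2-fold, 595 genes (4.5%) lay lower in LPS libraries 1 to 3 than in LPS libraries 4 and 5, and 78 (0.589%) lay higher. Both gene groups were picked by the values of LPS libraries 1 to 3. The Lcn2 rule had already put all 5 baicalin libraries opposite those 3. Part of the placement below was therefore built in, and the matching share over all genes was not computed. For 511 of the 595 (85.9%), all 5 baicalin libraries lay above the range of LPS libraries 1 to 3, and for 0 of them did all 5 lie within or below it. All 5 reached the lower of LPS libraries 4 and 5 for 4 genes. Baicalin plus LPS library 3 reached that level for 51.3% of the 595 genes, library 2 for 42.7%, library 1 for 36.3%, library 7 for 11.4% and library 5 for 10.1%. The share of the 595 genes at which a baicalin library lay between the LPS libraries ran from 43.4% in library 3 to 87.7% in library 7.

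For the 78 higher genes, all 5 baicalin libraries lay below the range of LPS libraries 1 to 3 in 49 cases (62.8%). Libraries 2 and 3 entered that range for 33.3% and 24.4% of the 78 genes, and libraries 1, 5 and 7 for none. Ackr4, a chemokine scavenging receptor, was 4.93, 4.11 and 3.902 CPM in LPS libraries 1 to 3, 0.418 and 0.452 CPM in LPS libraries 4 and 5, and 1.55, 4.77, 5.55, 0.615 and 1.16 CPM with baicalin. Mhrt, a long noncoding RNA that overlaps Myh7, was 58.7, 50.6 and 51.1 CPM in LPS libraries 1 to 3, 8.38 and 11.5 CPM in LPS libraries 4 and 5, and 29.3, 52.2, 36.9, 21.1 and 30.2 CPM with baicalin. Since the use of strand in counting is not given, reads of Mhrt and Myh7 cannot be told apart. Ltbp4, which binds latent TGF-beta in the matrix, was 238, 228 and 230.4 CPM in LPS libraries 1 to 3, 63.2 and 60.1 CPM in LPS libraries 4 and 5, and 60.8, 167, 146, 37.8 and 53.9 CPM with baicalin. Myh7b, Angptl7 and Cyp1a1, the last a target of the aryl hydrocarbon receptor, kept the sets apart. Myh7b had 119.6 to 136 CPM in the low set and 18.5 to 70.99 CPM in the high set, Angptl7 had 2.72 to 6.703 against 0.246 to 2.44 CPM, and Cyp1a1 had 2.97 to 3.54 against 0 to 1.53 CPM. Among the genes lower in LPS libraries 1 to 3, the stearoyl-CoA desaturase gene Scd4 was 3.63, 3.66 and 2.92 CPM in LPS libraries 1 to 3, 68.9 and 103 CPM in LPS libraries 4 and 5, and 51.4, 14.9, 7.36, 149 and 82.6 CPM with baicalin.

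**Figure D4:**
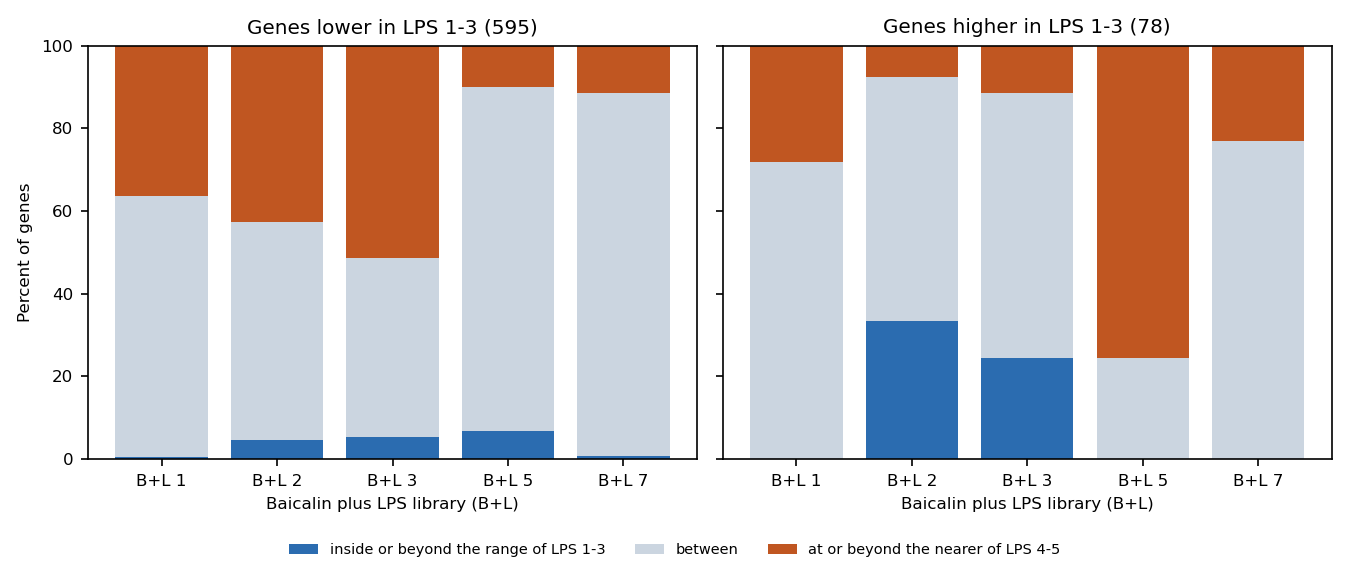
For each baicalin plus LPS library (B+L), the percent of the 595 genes lower (left) and the 78 genes higher (right) in LPS libraries 1 to 3 than in LPS libraries 4 and 5 by at least 2-fold whose level was inside or beyond the range of LPS libraries 1 to 3 (blue), between (grey), or at or beyond the nearer of LPS libraries 4 and 5 (orange). On the left the blue part is at most 6.89%, and on the right it is 33.3% and 24.4% for libraries 2 and 3.

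The 7 high libraries were not alike. Over the 101 genes with the widest separation downward, LPS library 4 was the highest high library for 68 (67.3%), and baicalin plus LPS library 5 the lowest for 60 (59.4%). The matching shares over all genes were not computed. Over the 439 genes higher in the low set, baicalin plus LPS library 5 was the lowest high library for 29.8% and LPS library 4 for 42.1%. LPS library 4 had the lowest mitochondrial share, 30.2%, and baicalin plus LPS library 5 the highest, 44.1%. The part of that share in this order was not tested. Pdk4, the kinase that shuts pyruvate out of oxidation during fasting, was 1002, 1275 and 1137 CPM in LPS libraries 1 to 3, 4398 and 3371 CPM in LPS libraries 4 and 5, and 2121, 162, 114, 2862 and 1547 CPM with baicalin. Baicalin plus LPS libraries 2 and 3 lay below even the low set for Pdk4, and the other 5 high libraries lay above it. Angptl4, an inhibitor of lipoprotein lipase that also responds to fasting, was 5.201, 11.9 and 6.204 CPM in LPS libraries 1 to 3, 161 and 84.6 CPM in LPS libraries 4 and 5, and 40.3, 2.25, 2.96, 65.8 and 37.7 CPM with baicalin, with the same libraries below and above the low set. The proliferation marker Mki67 was 12.7, 9.45 and 8.79 CPM in LPS libraries 1 to 3, 10.5 and 12.2 CPM in LPS libraries 4 and 5, and 33.7, 48.2, 84.7, 7.31 and 11.4 CPM with baicalin, high in baicalin plus LPS libraries 1 to 3 alone. Of 41 cell cycle genes, 3 lay lower in the low set and 0 higher. Hemoglobin, a marker of blood in the tissue, overlapped between the sets, with Hba-a1 at 23.1, 52.2 and 31.6 CPM in LPS libraries 1 to 3, 242 and 4.1995 CPM in LPS libraries 4 and 5, and 8.96, 7.63, 11.4, 15.6 and 23.8 CPM with baicalin.

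**Figure D5:**
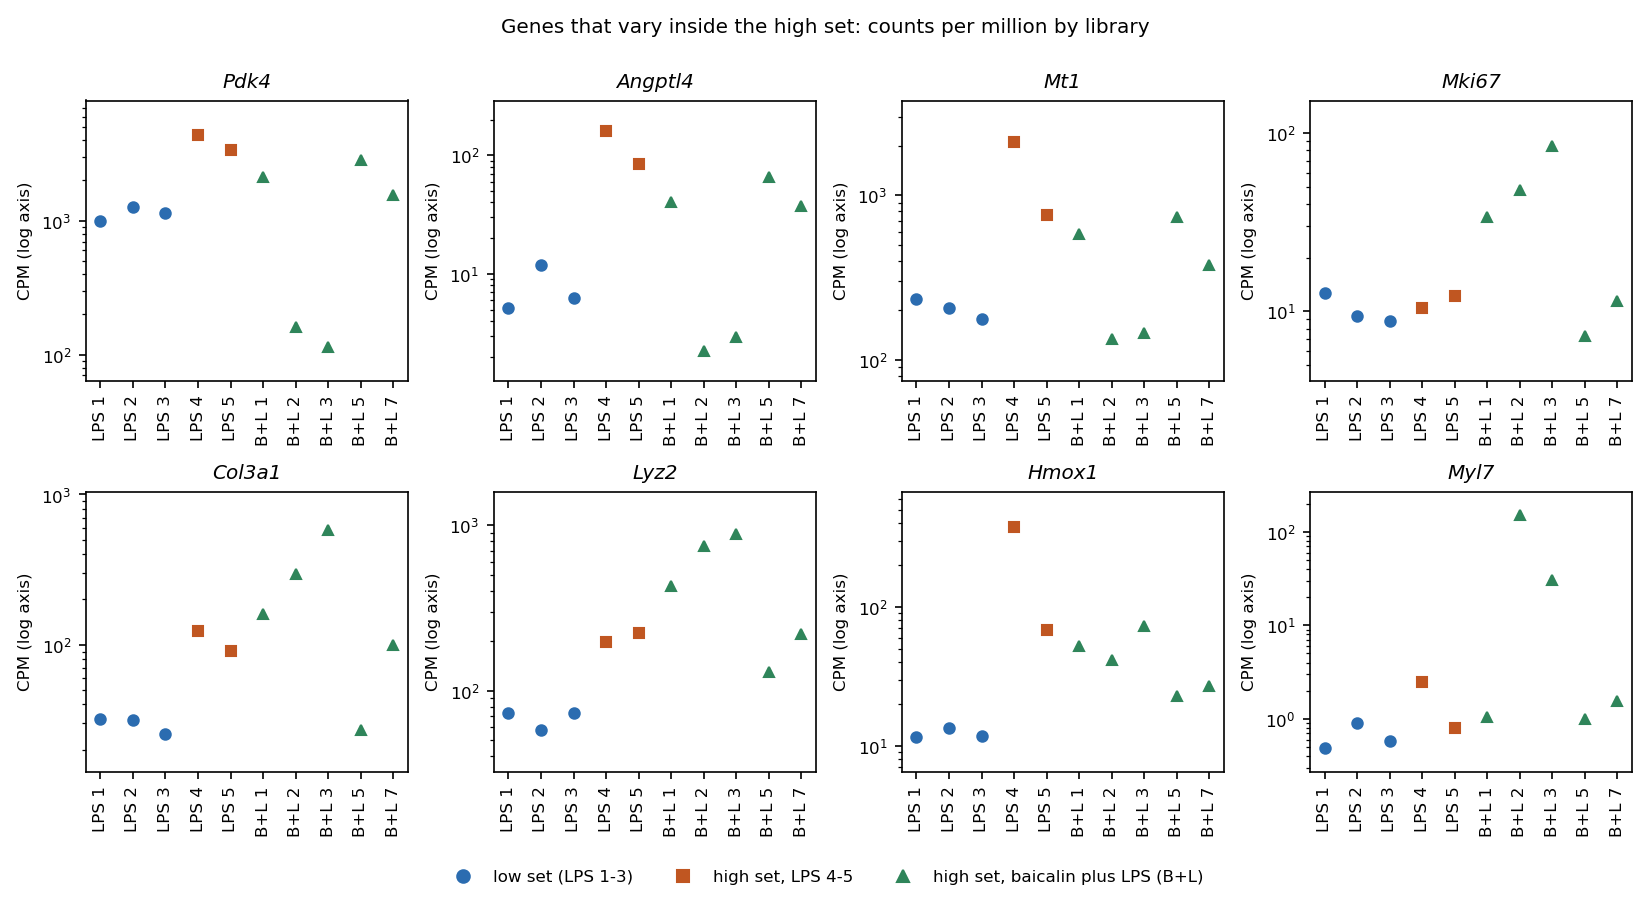
CPM of Pdk4, Angptl4, Mt1, Mki67, Col3a1, Lyz2, Hmox1 and Myl7 in each of the 10 libraries on log axes, 1 point per library, with circles for the low set, squares for LPS libraries 4 and 5 and triangles for baicalin plus LPS (B+L). Baicalin plus LPS libraries 2 and 3 lie lowest for Pdk4 and Angptl4 and highest for Lyz2 and Myl7, and LPS library 4 is highest for Hmox1 at 376 CPM.

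The study's own comparison, baicalin plus LPS against LPS, was tested with the low set inside the LPS group. Of 16850 genes, edgeR's quasi-likelihood test with Benjamini-Hochberg adjustment called 0 (0%) at an adjusted p of 0.05, while 1878 (11.1%) had an unadjusted p under 0.05. DESeq2 called 267 genes, limma-voom 0 and limma-voom with sample quality weights 2974. Lcn2 had 314 ± 490.1 CPM over the LPS libraries and 344 ± 214 CPM over the baicalin plus LPS libraries (SD, n = 5 each). The SD of the LPS group exceeded its mean, and the log2 fold change was 0.30 ± 1.29 (SE, n = 5 each, edgeR adjusted p = 0.954). For Saa3 it was 0.03 ± 1.27 (SE, n = 5 each, edgeR adjusted p = 0.996), for Serpina3n 0.40 ± 1.10 (SE, n = 5 each, edgeR adjusted p = 0.926) and for Cxcl13 1.36 ± 1.15 (SE, n = 5 each, edgeR adjusted p = 0.695). The myeloid genes Tlr2 and Lyz2 had 1.51 ± 0.45 (SE, n = 5 each, edgeR adjusted p = 0.301) and 1.88 ± 0.50 (SE, n = 5 each, edgeR adjusted p = 0.299). Among genes higher in the low set, Mylk4 had -1.40 ± 0.45 (SE, n = 5 each, edgeR adjusted p = 0.316), Aqp1 -1.51 ± 0.42 (SE, n = 5 each, edgeR adjusted p = 0.299), Myl2 -0.69 ± 0.30 (SE, n = 5 each, edgeR adjusted p = 0.436) and H2-Aa -1.34 ± 0.41 (SE, n = 5 each, edgeR adjusted p = 0.301).

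With the low set left out, which leaves 2 LPS libraries against 5 baicalin libraries, edgeR again called 0 genes and 2165 had an unadjusted p under 0.05. The fold change turned from positive to negative for Lcn2 (-0.99), Saa3 (-1.27) and Serpina3n (-0.87), and from negative to positive for Mylk4 (0.06) and Myl2 (0.28). None of these 5 values passed the adjustment in edgeR. The libraries left out were chosen for low Lcn2, so the fall of the Lcn2 fold change was built in. For genes that separate the sets, a shift was built in likewise, so these reversals are not a result about baicalin. The genes of smallest p in the full comparison overlapped between the low and high sets by column totals. After TMM scaling Xdh and Notch4 still overlapped, and Adgrf5 lay higher in the low set. Xdh, xanthine dehydrogenase, was 226, 189 and 182 CPM in LPS libraries 1 to 3, 249 and 196 CPM in LPS libraries 4 and 5, and 122, 144, 111, 101 and 135 CPM with baicalin, so LPS libraries 1 to 3 lay at the level of LPS libraries 4 and 5. Adgrf5, an adhesion receptor of endothelium, ranged from 321 to 395 CPM over LPS libraries and from 178 to 249 CPM over baicalin libraries. Notch4, an endothelial Notch receptor, had 30.3 to 51.4 CPM and 17.8 to 22.05 CPM. Their log2 fold changes were -0.85 ± 0.11 (SE, n = 5 each, edgeR adjusted p = 0.1105), -0.77 ± 0.11 (SE, n = 5 each, edgeR adjusted p = 0.1105) and -0.95 ± 0.14 (SE, n = 5 each, edgeR adjusted p = 0.144). Of the 13 genes with a fold change given here, DESeq2 called 6, with adjusted p values of 0.0391 for Tlr2, 0.0115 for Lyz2, 0.0257 for Aqp1, 1.35e-10 for Xdh, 2.83e-11 for Adgrf5 and 1.18e-05 for Notch4. Limma-voom with sample quality weights called all 13, with log2 fold changes of 5.13 for Lcn2, 5.51 for Saa3, 4.37 for Serpina3n and 6.06 for Cxcl13. For these 4 genes edgeR gave 0.30, 0.03, 0.40 and 1.36. The weighted values depend on how much each LPS library counts, and the weights were not examined. They cannot be read as a second estimate of a baicalin effect.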

How the data were processed

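RNA sequencing was read from 10 mouse heart libraries, 5 per group. TRIzol was used for the RNA and an ABclonal mRNA-seq kit for the libraries, per the labels' protocols. The submitters' processing notes name the mm10 build. No source used here gives the aligner, the counting program or the strand setting.

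The authors deposited whole-number read counts for 31655 gene IDs, not normalized. The authors also deposited FPKM values, which equalled the counts scaled per gene and library and served as an alternative unit only. All 20 columns were mapped to samples. Between 61.6% and 64.7% of a library's low counts (1 to 50) were even numbers, so totals do not count independent fragments. Symbols and coordinates came from GENCODE M21, and 579 IDs have no symbol there.

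CPM was the count divided by the column total. Levels compare libraries, not genes, since CPM is not scaled by gene length. A gene was lower or higher in a set when the ranges did not overlap. Differences are means of log2(CPM + 1), low minus high. The gap added 0.5 CPM to both sides. The members, the 25 pathway lists and the 18 marker lists were chosen with earlier results of these data known, so no list or set was tested.

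Named genes are the 12 of largest gap in each direction, the 8 in each direction inside the LPS group whose baicalin libraries did not all lie with LPS libraries 4 and 5, up to 4 per list, Lcn2, Saa3, Serpina3n, Il6, Tnf and Il1b, and the 3 of smallest p between the groups. Some genes under this rule are not reported here. Other list members were named after their values were seen. Of 138 genes named, 21 overlap another protein-coding gene, among them Timp1 with Syn1 and Xirp1 with Cx3cr1.

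The groups were compared with edgeR 4.0.16 in R 4.3.3 (TMM, filterByExpr, robust quasi-likelihood F test, two-sided, Benjamini-Hochberg over 16850 genes), tested on simulated data. The design speaks of 8 mice per group, but labels do not tie libraries to mice, so a p-value reflects only how these libraries vary, which may be technical. Alternatives used other size factors and filters, DESeq2 1.42.0, limma 3.58.1 with voom, FPKM, a replicate block and leaving out each library. For 4 shared replicate numbers the deviations of same-numbered libraries correlated between -0.104 and 0.076, so no pairing by number was seen. The split inside the LPS group enters these deviations, so the check cannot exclude a pairing. Serum amyloid, Serpina3, hemoglobin, interferon-induced and MHC genes have near copies whose reads may be divided.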

Additional observations from a re-analysis of the deposited data

Results flagged for a closer look

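Within the LPS group and within the baicalin group, a library was picked out when its gap to the nearest other library, divided by the range of the group, exceeded the 95% limit for 5 libraries. This was examined for 138 genes in both groups, 276 cases, and 26 were picked out. About 5% of groups would be picked out by chance, and genes are not independent.

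LPS library 4 accounted for 17 of the 26, each time as the highest of the 5. The ratios were 0.754 for Hp, 0.732 for Timp1, 0.733 for Serpina3m, 0.863 for Steap4 and 0.776 for Ptx3. They were 0.724 for Myd88, 0.726 for Il6, 0.925 for Cxcl9 and 0.771 for Selp. They were 0.85 for S100a9, 0.871 for Ngp, 0.844 for Hmox1, 0.777 for Xirp1, 0.917 for Rcan1, 0.787 for Myl7, 0.845 for Alb and 0.798 for Hba-a1. For Rcan1, LPS library 4 had 592 CPM and the other 4 LPS libraries at most 85.9 CPM.

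Baicalin plus LPS library 2 stood out as the highest for Il6 (0.838), Nppa (0.734), Myl7 (0.804), Myl4 (0.785) and Cyp1a1 (0.861). Myl4, the atrial essential light chain, was 194 CPM there, 42.4 CPM in library 3 and at most 2.06 CPM in the other 3 baicalin libraries. Library 3 was highest for Lox (0.75), library 1 for Ppargc1a (0.78) and library 7 for Des (0.752), where the 5 values lay within 1609.9 to 1690.04 CPM. Library 5 was lowest for Ttn (0.796).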

How the results depend on the processing

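The counts of genes without overlap depended on the scaling. After TMM scaling, 1420 genes were lower and 1419 higher in the low set, and 4047 and 3798 inside the LPS group. With the total taken without mitochondrial genes, 798 genes were higher in the low set and 3055 inside the LPS group. Of the 2686 lower genes, 1367 were also lower after TMM, and of the 439 higher genes 434 were also higher. With no filter on the mean, 663 and 3188 genes were higher. With a gap of at least 2-fold the counts were 101 lower and 5 higher across the sets, and 595 and 78 inside the LPS group. Leaving out each library in turn gave 2716 to 3916 genes lower and 450 to 599 higher across the sets, and 6788 to 8414 lower and 1726 to 3573 higher inside the LPS group, where 3573 came without LPS library 5. Of 25 pathway lists, 14 had a larger share lower than all genes, and 11 to 18 did under the alternatives. The share of 595 genes with all baicalin libraries outside the low range was 85.9%, and 86.6% after TMM and 88.3% without mitochondrial genes, alternatives chosen after seeing the data.

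Between the groups, 0 genes were called by edgeR, 2 without a filter, 267 by DESeq2 and 2974 by limma-voom with sample quality weights. Leaving out any 1 library gave 0, as did the replicate block over the 4 shared numbers, with 2565 genes at an unadjusted p under 0.05. The numbers do not pair the libraries. Without the low set the log2 fold changes with reversed sign were -0.99 for Lcn2, -1.27 for Saa3, -0.87 for Serpina3n, 0.062 for Mylk4 and 0.28 for Myl2. Leaving out libraries chosen for low Lcn2 had to shift genes that separate the sets. With column totals Saa3 was -0.070. Leaving out 1 library moved Lcn2 between -0.24 and 1.73 and Saa3 between -0.28 and 1.05. The cause was not tested. The sets rest on 3 and 7 libraries chosen by readout, and genes under 1 CPM rest on few reads.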

Other observations

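Of 19 circadian clock genes, 4 lay higher in the low set and 3 lower, against 3.32% and 20.3% of all genes. After TMM scaling 5 lay higher and 0 lower. Tef, a clock-controlled transcription factor, was 168, 132 and 145 CPM in LPS libraries 1 to 3, 73.2 and 88.98 CPM in LPS libraries 4 and 5, and 84.6, 119.7, 74.8, 73.3 and 98.2 CPM with baicalin. Nr1d2, the nuclear receptor REV-ERB beta, had 118 to 142 CPM in the low set and 67.5 to 110.2 CPM in the high set, and Rora had 40.003 to 43.9 CPM in the low set and 18.2 to 32.9 CPM in the high set. Cry1, a repressor of the clock, had 10.03 to 10.2 CPM in the low set and 6.52 to 7.89 CPM in the high set. Clock itself lay lower by column totals, at 34.5 to 41.7 CPM in the low set and 46.1 to 59.1 CPM in the high set, and overlapped after TMM scaling. The hour of tissue collection is not given in the sources used here, and its part in these values was not tested.

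Of 15 glucocorticoid-induced genes, 0 lay lower across the sets and 1 higher, Klf9, a transcription factor induced by glucocorticoids, at 157 to 173 CPM in the low set and 87.5 to 143 CPM in the high set. The median log2 difference was -0.05, beside -0.18 for all genes. Inside the LPS group 8 of the 15 lay lower than in LPS libraries 4 and 5 and 2 higher, against 51.3% and 13% of all genes, and the median log2 difference was -0.63, beside -0.23 for all genes.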
